A study of Danio rerio with 10 samples.

Results

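The genes described here encode the myosins, troponins, tropomyosins, actins, actinins and giant filament proteins of the contractile apparatus, together with their smooth muscle and non-muscle relatives. Members were chosen by the start of the gene symbol in the platform annotation (myl, myh, smyh, vmhc, tnnt, tnni, tnnc, tpm, acta, actc, actn, tmod, myoz, mybpc, ttn, neb, and des followed by a, b or m). This gave 59 probe sets of 47 genes, out of 8793 genes with a probe set of one symbol, and each gene was read from its probe set with the highest 10-array mean. Kidney marrow RNA of zebrafish overexpressing human CREB (5 arrays, called CREB fish) was compared with kidney marrow RNA of control zebrafish (5 arrays, called control fish). CREB switches genes on when cyclic AMP rises, and kidney marrow is where adult zebrafish make their blood cells. The study's title concerns leukaemia and blocked myeloid differentiation in these fish. The promoter of the transgene, the strain, the age and the sex of the fish are not given in the sources used here. The study's design text counts 5 animals per group.

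In striated muscle, myosin of the thick filament pulls on actin of the thin filament. Calcium binding to troponin C, held by troponin I and troponin T on tropomyosin, lets it do so. Fast fibres, slow fibres and heart use different genes for most of these proteins, whereas smooth muscle and non-muscle cells use other myosins, actins and tropomyosins and no troponin. Kidney marrow is not a muscle, and its blood cells and vessel walls express mainly the non-muscle and smooth forms. The members were therefore grouped into fast skeletal (18), slow skeletal (2), cardiac (6), shared by striated muscles (5), smooth muscle (4) and non-muscle (6) genes. A further 5 genes were of mixed or uncertain class. The remaining gene, mylipa, fits the symbol rule by spelling only, since it encodes a ubiquitin ligase that binds myosin light chain and no sarcomere protein.

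Signals are log2 values, and each difference is CREB minus control. The array medians lay between 5.72 and 5.93. Over all 15502 probe sets tested, 23.5% were higher and 6.79% lower in CREB fish (limma, adjusted p under 0.05), and the median difference was 0.18. That shift sat in the dim probe sets: the median difference was 0.24 for probe sets with a mean signal below 4, 0.33 between 4 and 5, 0.21 between 5 and 6, and -0.03 at 6 or more. The 17 control probe sets for tag sequences, which match no fish gene, averaged 4.33 ± 0.10 on CREB arrays and 4.08 ± 0.11 on control arrays (SD, n = 5 each). Their highest probe set means were 5.59 on CREB arrays and 5.18 on control arrays. A member within that range in both groups cannot be told from background, and a small difference at such a signal is of the size of the shift in all dim probe sets.

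Leukocyte and red cell markers were bright in both groups, and so were kidney tubule markers. On control array 5 the mean of the pancreas markers (11.60) was above that of the leukocyte markers (10.30). The leukocyte markers measured (7 genes) had mean levels between 9.77 and 11.04 on CREB arrays and between 10.30 and 11.47 on control arrays. All 7 differences were negative, between -0.88 and -0.44 with a median of -0.76. Of the 7, 1 passed the test as lower in CREB fish, the lysozyme gene lyz. The genes mpx and coro1a had an unadjusted p under 0.05 (limma) and did not pass. Red cell markers (6 genes) lay between 9.15 and 11.26 on CREB arrays and between 10.17 and 10.95 on control arrays, with none past the test (limma; 0 at an unadjusted p under 0.05). Kidney tubule markers had levels between 9.83 and 10.89 on CREB arrays against 8.51 to 9.23 on control arrays. Of 6 genes 5 rose, against 23.5% of all probe sets higher. The differences were 4.17 for slc20a1a, 2.21 for trpm7 and 1.395 for pax2a. Those of atp1a1a.4, slc12a3 and cdh17 were 0.86, 0.83 and 0.75, and cdh17 did not pass. Gonad and egg markers reached 7.15 on CREB arrays and 9.55 on control arrays, and pancreas markers reached 6.83 on CREB arrays and 11.60 on control arrays. The high control values were on arrays 3, 4 and 5 for gonad and egg markers and on arrays 4 and 5 for pancreas markers. Results are also given without these 3 control arrays. Gonad and egg markers were also high on CREB array 4, at 7.15, near the 7.55 of control array 4. The other CREB arrays had 4.94 to 5.72, and CREB array 4 stayed in the fit without the 3 control arrays. Of these markers, 1 of 6 gonad and egg genes was lower and 0 of 6 pancreas genes passed (0 at an unadjusted p under 0.05). In whole tissue, more cells of a type and more RNA per cell cannot be told apart.

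Of the 47 members, 26 rose, 1 fell and 20 did not pass the test, against a background of 23.5% of all probe sets higher and 6.79% lower. The median difference of the members was 0.54. Of those that rose, 18 had a difference above 1, and the other 8 had differences between 0.32 and 0.83. In 24 members every CREB array lay above every control array, a pattern shown by 19.6% of all probe sets. The only member that fell was mylipa. With all arrays 3640 of 15502 probe sets were higher. Without CREB arrays 3 and 5 the counts were 20 members and 1664 probe sets higher. Without control arrays 3, 4 and 5 they were 2 members and 143 probe sets higher. Only 2 control arrays remain in that fit, and the members' median difference was 0.48.

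**Figure D1:**
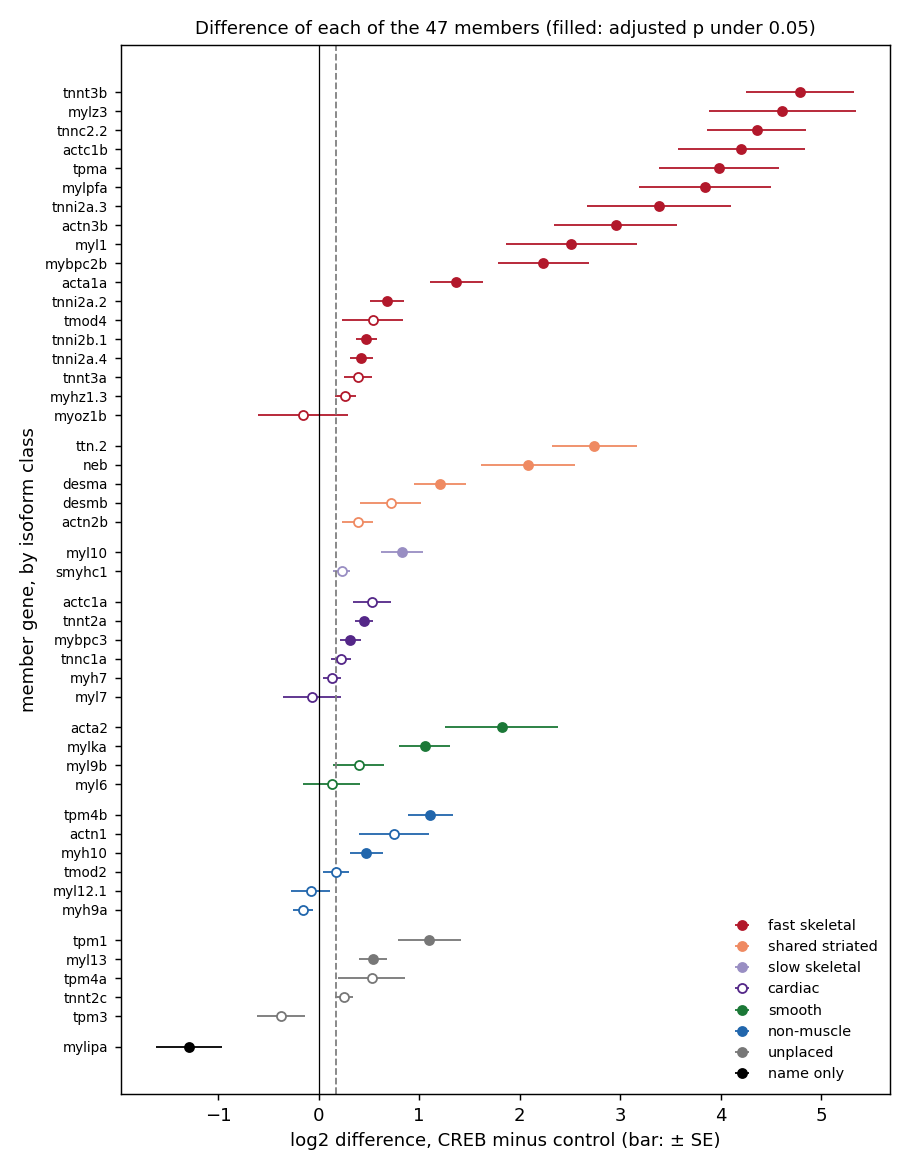
Log2 difference (CREB minus control, with SE) of each of the 47 members, grouped by isoform class, filled where the adjusted p was under 0.05; the dashed line marks the median of all probe sets at 0.18. Differences above 2 were all in fast skeletal and shared striated genes, up to 4.79 for tnnt3b, and the 6 cardiac genes stayed between -0.07 and 0.53.

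Fast skeletal genes carried the large differences. Of 18 members 14 rose, none fell and 4 did not pass, against 23.5% of all probe sets higher. Of the 14, 11 had a difference above 1. The other 3, tnni2a.2, tnni2b.1 and tnni2a.4, lay within the range of the tag probe sets in both groups. Among all probe sets, 27.4% with a mean signal below 4 and 36.8% with one between 4 and 5 were higher. The class median was 2.37. For 11 called members of any class the control mean lay within the range of the tag probe sets and the CREB mean above it, so the fitted difference of these is not an exact size. The CREB mean lay above the highest tag probe set mean on control arrays (5.18) by 3.71 for tnnc2.2, 3.18 for tpma and 3.03 for tnni2a.3. The same distance was 2.42 for ttn.2, 2.24 for actn3b, 1.54 for mybpc2b, 1.19 for acta1a and 1.19 for myl1. It was 0.89 for tpm1, 0.57 for myl10 and 0.505 for neb. These distances carry no sampling error and are no strict bounds, since the highest tag probe set mean on CREB arrays was 5.59. The mean level of the fast class was 7.17 ± 0.85 in CREB fish and 4.90 ± 0.12 in controls (SD, n = 5 each).

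Among thin filament regulators, the fast troponin T gene tnnt3b, whose product anchors the troponin complex to tropomyosin, had signals of 11.39, 8.75, 8.75, 10.68 and 11.26 on CREB arrays 1 to 5, against 5.13, 5.49, 5.70, 5.19 and 5.38 on control arrays 1 to 5. Every CREB array was high, and arrays 2 and 3 were the lowest of the group. The difference was 4.79 ± 0.54 (SE; limma, adjusted p = 0.00121). The fast troponin C gene tnnc2.2, which encodes the calcium sensor, had 9.53, 8.01, 7.22, 9.56 and 10.11 in CREB fish, against 4.58, 4.59, 4.54, 4.56 and 4.38 in control fish. The difference was 4.36 ± 0.49 (SE; limma, adjusted p = 0.00122), with control values within the range of the tag probe sets. Tropomyosin gene tpma, the tropomyosin of fast fibres, had 9.88, 7.0, 6.73, 8.57 and 9.64 in CREB fish, against 4.43, 4.74, 4.08, 4.06 and 4.60 in control fish. All 5 CREB values were above the control range, with a difference of 3.98 ± 0.60 (SE; limma, adjusted p = 0.00353).

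Troponin I, the inhibitory subunit, was measured by 4 fast genes, of which only tnni2a.3 had a CREB mean above the range of the tag probe sets. The gene tnni2a.3 had signals of 9.31, 5.73, 7.13, 8.65 and 10.25 in CREB fish, against 4.59, 5.0, 4.64, 5.02 and 4.89 in control fish. CREB array 2 was the lowest of its group and still above the controls, and the difference was 3.38 ± 0.72 (SE; limma, adjusted p = 0.0104). Its paralogues tnni2a.2, tnni2b.1 and tnni2a.4 rose by 0.68 ± 0.17, 0.47 ± 0.11 and 0.42 ± 0.12 (SE; limma, adjusted p = 0.0183, 0.0120 and 0.0238). All of these stayed within the range of the tag probe sets in both groups. Under quantile scaling their differences were 0.43, 0.21 and 0.21 and none passed (adjusted p = 0.0981, 0.157 and 0.196). The call of tnni2a.4 was also lost without CREB array 1, CREB array 5 or control array 3 (adjusted p up to 0.0515). A second tnni2a.4 probe set, at 0.70 ± 0.27, did not pass (SE; limma, adjusted p = 0.0701). A probe set annotated to both tnni2a.4 and tnni2a.2, which is no member, rose by 0.85 ± 0.24 (SE; limma, adjusted p = 0.0263). In the RefSeq gene table tnni2a.3 stands between tnni2a.2 and tnni2a.4. The small differences were at background signals, so how far these adjacent genes differ cannot be told. A second fast troponin T gene, tnnt3a, had a difference of 0.39 ± 0.14 and did not pass (SE; limma, adjusted p = 0.0538).

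Of the actin genes, actc1b, an alpha actin abundant in zebrafish skeletal muscle, had signals of 12.43, 10.90, 8.86, 10.92 and 12.70 in CREB fish, against 6.38, 7.01, 7.0, 7.05 and 7.34 in control fish. No CREB array fell into the control range, and the difference was 4.21 ± 0.63 (SE; limma, adjusted p = 0.00353). A second probe set of the gene also rose, by 4.21 ± 0.69 (SE; limma, adjusted p = 0.00463). The remaining 2 probe sets lay at 4.01 and 4.36 in CREB fish and at 3.69 and 4.18 in control fish and did not pass. Skeletal alpha actin acta1a had 6.24, 6.76, 6.04, 5.76 and 7.05 in CREB fish, against 4.78, 5.61, 4.66, 4.89 and 5.06 in control fish, a difference of 1.37 ± 0.27 (SE; limma, adjusted p = 0.00798). The groups did not overlap, although control array 2 and CREB array 4 came close to each other. Muscle actin genes are near-identical in coding sequence, and how far each actin probe set is specific was not tested.

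The array also carries control probe sets named for acta1, which were set aside from the fit. They are read here as lying along the actc1b transcript, and this assignment was not tested. At the 3' end the signals were 12.20, 10.81, 9.60, 10.90 and 12.57 in CREB fish, against 5.81, 6.47, 6.48, 6.56 and 6.81 in control fish. The middle of the transcript gave 8.61, 7.69, 5.27, 8.34 and 10.05 in CREB fish, against 5.50, 5.75, 5.57, 5.70 and 5.73 in control fish. There CREB array 3 was below every control array while the other 4 were above them. A 5' probe set averaged 7.31 ± 0.25 in CREB fish and 6.82 ± 0.30 in controls (SD, n = 5 each). The difference thus shrank along the transcript, at 4.79 for the 3' end, 2.34 for the middle and 0.49 for that 5' probe set. For gapdh, the enzyme gene used as a quality control, the 3' end averaged 11.46 in CREB fish and 11.48 in control fish. Its 5' end had 9.92, 10.30, 6.50, 10.37 and 6.74 in CREB fish, against 9.54 to 10.70 in control fish, so CREB arrays 3 and 5 were low. Those same arrays stood at opposite ends for the actc1b 3' end and middle, array 5 highest and array 3 lowest. At the 5' probe set above they did not, with 7.66, 7.12, 7.46, 7.05 and 7.24 in CREB fish. A second 5' probe set had 8.41, 8.30, 7.60, 8.01 and 7.34 in CREB fish, against 7.32 to 7.87 in control fish. There CREB array 5 was the lowest of its group and array 3 the next, and the difference was 0.41. Without CREB arrays 3 and 5, 12 fast members rose in place of 14, and 1664 of all 15502 probe sets in place of 3640.

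**Figure D2:**
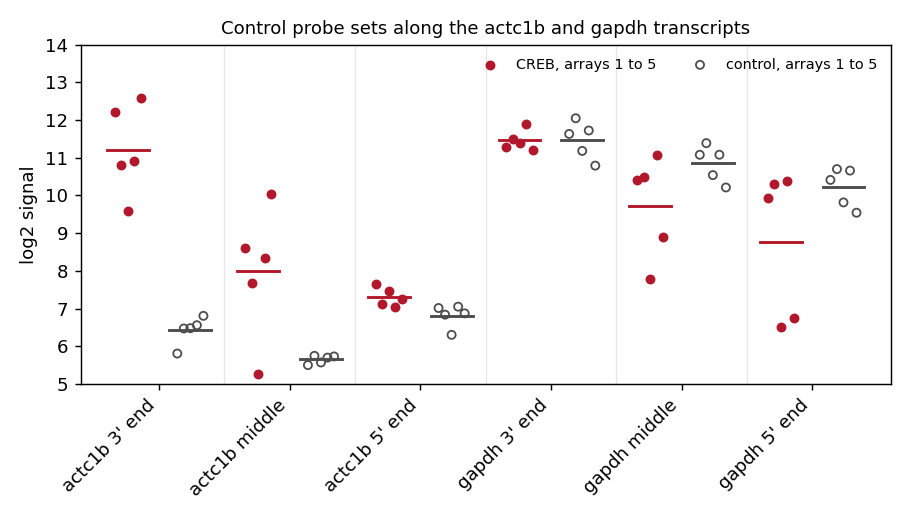
Log2 signal of Affymetrix control probe sets at the 3' end, middle and 5' end of actc1b (named for acta1 on the array) and gapdh. CREB arrays are filled points, control arrays open points and the group mean a bar. The gap between groups for actc1b is 4.79 at the 3' end and 0.49 at the 5' probe set shown. The gapdh 5' signal is low on CREB arrays 3 and 5 (6.50 and 6.74).

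Thick filament genes of fast fibres moved as well. The myosin light chain gene mylz3 had 11.34, 9.55, 7.11, 10.96 and 11.35 in CREB fish, against 5.13, 5.40, 5.44, 5.46 and 5.81 in control fish. CREB array 3 was much the lowest of its group and lay above the highest control array, and the difference was 4.61 ± 0.73 (SE; limma, adjusted p = 0.00422). The regulatory light chain gene mylpfa had 11.37, 8.70, 7.40, 8.84 and 10.71 in CREB fish, against 5.26, 5.32, 5.64, 5.65 and 5.95 in control fish, a difference of 3.84 ± 0.65 (SE; limma, adjusted p = 0.00520). Its second probe set gave 3.28 ± 0.42 (SE; limma, adjusted p = 0.00218). The alkali light chain gene myl1 was more uneven, with 8.29, 5.21, 4.25, 6.82 and 7.26 in CREB fish, against 3.80, 3.91, 3.88, 3.95 and 3.73 in control fish. Its difference was 2.51 ± 0.65 (SE; limma, adjusted p = 0.0197), and CREB array 3 was the nearest to the control range. Myosin-binding protein gene mybpc2b, which encodes a strut of the fast thick filament, had 7.55, 6.08, 5.21, 8.0 and 6.76 in CREB fish, against 4.31, 4.75, 4.48, 4.45 and 4.46 in control fish. This was a difference of 2.23 ± 0.45 (SE; limma, adjusted p = 0.00921).

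Heavy chains themselves were poorly covered by the rule. The probe set of the fast heavy chain gene myhz1.3 stayed at background, with 3.24 ± 0.10 in CREB fish and 2.98 ± 0.16 in controls (SD, n = 5 each), and did not pass (limma, adjusted p = 0.0816). A probe set annotated to 6 heavy chain genes at once is no member, and was looked at after the values were seen. It had 10.75, 8.42, 8.29, 8.82 and 10.99 in CREB fish, against 4.45, 4.76, 4.57, 4.51 and 4.61 in control fish. The fitted difference was 4.88 ± 0.53 (SE; limma, adjusted p = 0.00105). Its CREB mean lay 4.27 above the highest tag probe set mean on control arrays. Which of the 6 genes gave the signal cannot be told apart.

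At the Z disc, where thin filaments are anchored, the fast alpha-actinin gene actn3b had 8.98, 5.73, 5.86, 8.40 and 8.12 in CREB fish, against 4.38, 4.28, 4.82, 4.26 and 4.58 in control fish. The difference was 2.95 ± 0.61 (SE; limma, adjusted p = 0.00973), and CREB arrays 2 and 3 were the low ones. By contrast myoz1b, a Z-disc protein gene, had 6.73, 5.33, 6.31, 5.36 and 6.26 in CREB fish, against 5.69, 7.78, 5.50, 5.93 and 5.89 in control fish. Its groups overlapped fully and the highest value of all was on control array 2 (difference -0.16 ± 0.45, SE; limma, adjusted p = 0.799). The thin filament capping gene tmod4 had 8.91, 8.69, 7.33, 8.14 and 8.98 in CREB fish, against 8.07, 7.90, 7.46, 8.06 and 7.88 in control fish. It was well above background in both groups, and its difference of 0.54 ± 0.30 did not pass (SE; limma, adjusted p = 0.183) except without CREB array 3, at 0.80 (adjusted p = 0.0261).

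Genes classed here as shared by striated muscles were split. Of 5 members 3 rose and 2 did not pass, against 23.5% of all probe sets higher, and the median difference was 1.21. The titin gene ttn.2, which encodes the elastic filament spanning the sarcomere from Z disc to centre, had 8.95, 6.85, 6.29, 8.03 and 7.91 in CREB fish, against 4.83, 4.98, 4.73, 4.84 and 4.94 in control fish. The difference was 2.74 ± 0.42 (SE; limma, adjusted p = 0.00403), and a second ttn.2 probe set gave 2.45 ± 0.39 (SE; limma, adjusted p = 0.00424). The other two ttn.2 probe sets, at 4.0 and 3.08 in CREB fish and 3.78 and 3.02 in control fish, did not pass. Nebulin gene neb, the ruler protein along the thin filament, had 6.89, 4.79, 4.20, 6.08 and 6.47 in CREB fish, against 3.47, 3.82, 3.42, 3.75 and 3.57 in control fish. All CREB arrays were above the control range, with a fitted difference of 2.08 ± 0.47 (SE; limma, adjusted p = 0.0122). The neb controls were within the tag range, as were CREB arrays 2 and 3. Its CREB mean was 5.69, against highest tag probe set means of 5.18 on control arrays and 5.59 on CREB arrays.

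Desmin, the intermediate filament linking neighbouring sarcomeres, has a pair of genes here. The gene desma had 6.75, 5.88, 5.89, 7.16 and 6.99 in CREB fish, against 5.23, 5.46, 5.16, 5.44 and 5.31 in control fish, a difference of 1.21 ± 0.26 (SE; limma, adjusted p = 0.0106). Its paralogue desmb had 5.44, 4.80, 4.14, 4.09 and 5.59 in CREB fish, against 4.16, 4.11, 3.69, 4.26 and 4.25 in control fish. CREB arrays 3 and 4 lay among the controls, and the difference of 0.72 ± 0.30 did not pass (SE; limma, adjusted p = 0.0943). The alpha-actinin gene actn2b, at a difference of 0.39 ± 0.15, did not pass either (SE; limma, adjusted p = 0.0767). With array weights both desmb and actn2b passed.

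The CREB fish were unequal in these genes. Over the 14 fast and shared striated members taken for a difference above 1, the SD was between 0.53 and 1.81 in CREB fish and between 0.09 and 0.37 in control fish. Many of the control means lay within the range of the tag probe sets, where little spread can be seen, so these SDs are a description only. The class mean, which evens out single genes, had an SD of 0.85 in CREB fish and 0.12 in controls for fast genes. For shared striated genes its SD was 0.64 in CREB fish and 0.12 in controls, and for slow genes 0.26 and 0.08. In the smooth, non-muscle and cardiac classes the spread of the class mean was no larger in CREB fish. It was 0.48 in CREB fish and 0.52 in controls for smooth genes (SD, n = 5 each). The SD was 0.09 in CREB fish and 0.19 in controls for non-muscle genes, and 0.09 in CREB fish and 0.15 in controls for cardiac genes. Single genes of these classes went either way. The SD was larger in CREB fish for tpm4b (0.515, against 0.114 in controls) and actc1a (0.41 against 0.17). It was smaller for myl7 (0.19 against 0.68) and mylka (0.25 against 0.56). Among the 14 fast and shared striated members, CREB array 2 or 3 was the lowest of its group in 13, and CREB array 1 or 5 the highest in 12. Measured from each gene's control mean, the median rise was 4.49 on CREB array 1, 1.87 on array 2, 1.54 on array 3, 3.67 on array 4 and 4.40 on array 5. These 14 genes share 5 arrays, so their common order is 1 pattern and not 14. In the first class placing, changed after the data were seen, tpm1 was also fast, with a difference above 1. It is not among the 14, and it was lowest on CREB array 4 and highest on array 3. Without CREB arrays 1 and 5 the 14 differences were 0.99 to 4.02. Their sign could not change, since in each of the 14 every CREB array lay above every control array. In that fit 9 of the 14 passed, and 1090 of all 15502 probe sets were higher. Without control arrays 3, 4 and 5 the 14 differences were 1.17 to 4.86 (median 3.25, against 3.17 with all arrays). Of the 14, only tnnt3b and tnnc2.2 passed there (limma, adjusted p = 0.0348 and 0.0384), and 143 of all probe sets were higher.

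**Figure D3:**
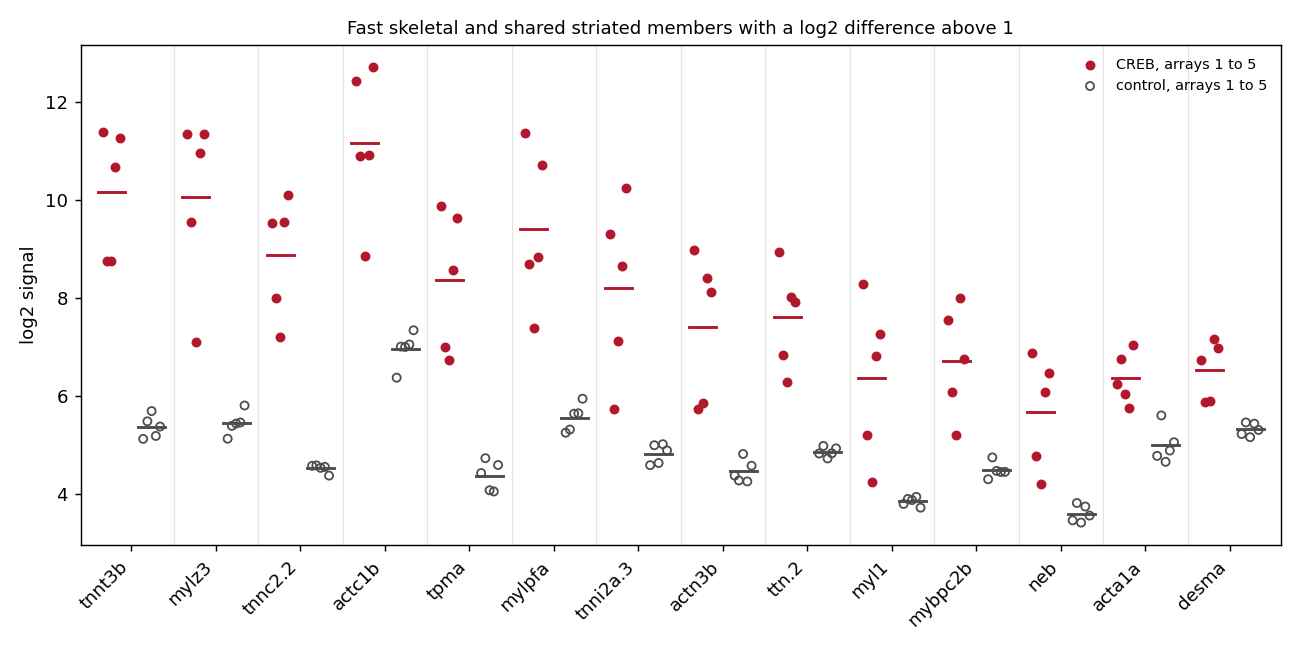
Log2 signal on each array (CREB filled, left; control open, right; arrays 1 to 5 from left to right within a group; bars are means) of the 14 fast skeletal and shared striated members with a log2 difference above 1. All CREB points lie above the control points of the same gene, and the CREB SD runs from 0.53 to 1.81.

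Slow skeletal genes had no large difference. The heavy chain gene smyhc1, which marks slow fibres, had 3.39, 3.31, 3.35, 3.30 and 3.50 in CREB fish, against 3.18, 3.14, 3.15, 3.12 and 3.13 in control fish. These values lie at the bottom of the signal range in both groups. Its difference of 0.23 ± 0.08, close to the 0.24 of all probe sets below 4, did not pass (SE; limma, adjusted p = 0.0620). The light chain gene myl10 had 6.16, 5.80, 5.40, 5.18 and 6.20 in CREB fish, against 4.75, 5.18, 4.89, 4.94 and 4.84 in control fish. It rose by 0.83 ± 0.21 (SE; limma, adjusted p = 0.0169), the lowest CREB array being level with the highest control array. Under quantile scaling its difference was 0.69 and just missed the threshold (adjusted p = 0.0509). The class rests on 2 genes.

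Cardiac genes other than actc1a stayed low. Of 6 members 2 rose, none fell and 4 did not pass. Among all probe sets, 27.4% with a mean signal below 4 and 36.8% with one between 4 and 5 were higher. The class median of 0.27 was near the shift of dim probe sets. The first class placing also held tpm4a and tnnt2c as cardiac, and 2 cardiac members rose there too. Of these, tpm4a was bright, at 9.135 in CREB fish and 8.609 in controls, and did not pass. The mean level of the class was 4.48 ± 0.09 in CREB fish and 4.22 ± 0.15 in controls (SD, n = 5 each). The cardiac troponin T gene tnnt2a had 4.13, 3.98, 3.94, 3.87 and 4.07 in CREB fish, against 3.66, 3.51, 3.59, 3.45 and 3.53 in control fish. It rose by 0.45 ± 0.09 (SE; limma, adjusted p = 0.00929) and was free of overlap, but it sat within the range of the tag probe sets in both groups. The myosin-binding protein gene mybpc3 rose by 0.32 ± 0.10 at the same kind of signal (4.38 in CREB fish, 4.06 in control fish; SE; limma, adjusted p = 0.0447). It no longer passed with any single array removed, except CREB array 4 (adjusted p up to 0.0906). Under quantile scaling the differences were 0.19 for tnnt2a and 0.06 for mybpc3, and neither passed (adjusted p = 0.142 and 0.687).

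The other cardiac genes gave no call. The atrial and ventricular light chain gene myl7 had 4.03, 4.27, 4.46, 3.98 and 4.15 in CREB fish, against 4.04, 3.94, 3.54, 4.34 and 5.35 in control fish. The highest value was on a control array (difference -0.07 ± 0.29, SE; limma, adjusted p = 0.872). Cardiac troponin C, tnnc1a, averaged 3.34 ± 0.13 in CREB fish and 3.12 ± 0.07 in controls, and the heavy chain gene myh7 averaged 3.95 ± 0.10 in CREB fish and 3.82 ± 0.07 in controls (SD, n = 5 each). Neither passed (limma, adjusted p = 0.104 and 0.260). The actin gene actc1a, used in heart, was above background at 7.42, 7.43, 6.47, 6.99 and 6.85 in CREB fish, against 6.40, 6.65, 6.27, 6.68 and 6.52 in control fish. CREB array 3 lay among the controls and the difference of 0.53 ± 0.19 did not pass (SE; limma, adjusted p = 0.0593). Without CREB array 3 it passed, at 0.67 (adjusted p = 0.0233).

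**Figure D4:**
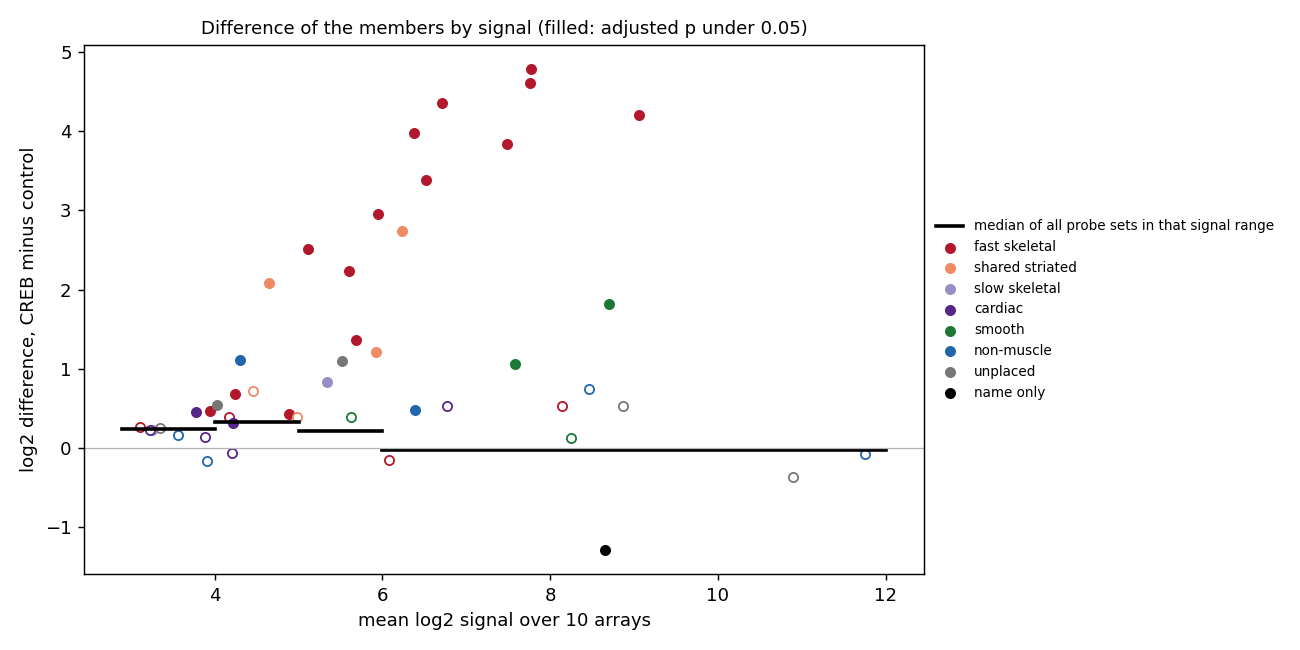
Log2 difference of each member against its mean log2 signal over the 10 arrays, coloured by isoform class and filled where the adjusted p was under 0.05; black bars give the median difference of all probe sets in each signal range. Of the 8 called members with a difference of 1 or less, 6 lie at signals below 5, where the median of all probe sets is itself 0.24 to 0.33.

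Of 4 smooth muscle genes 2 rose, none fell and 2 did not pass, against 23.5% of all probe sets higher. The median difference was 0.73, and the class rests on 4 genes. The smooth muscle actin gene acta2, which marks vessel walls and contractile stroma, had 10.50, 10.57, 8.54, 8.48 and 9.99 in CREB fish, against 6.88, 9.33, 7.22, 7.97 and 7.58 in control fish. Control array 2 lay above CREB arrays 3 and 4, so the groups overlapped. The difference was 1.82 ± 0.56 (SE; limma, adjusted p = 0.0354). It no longer passed without CREB array 1, 2 or 5 or control array 1, 3, 4 or 5 (adjusted p up to 0.0783, differences 1.58 to 1.86). The myosin light chain kinase gene mylka had 8.13, 8.18, 8.27, 7.67 and 8.28 in CREB fish, against 7.54, 7.70, 6.36, 6.84 and 6.81 in control fish. Only CREB array 4 and control array 2 made the groups overlap. It rose by 1.05 ± 0.25 (SE; limma, adjusted p = 0.0156), but its second probe set, at 0.62 ± 0.28, did not pass (SE; limma, adjusted p = 0.109). Without control arrays 3, 4 and 5, which had its lowest values, the difference was 0.48 (adjusted p = 0.164).

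Light chains shared by smooth muscle and other cells did not pass. The gene myl9b had a difference of 0.40 ± 0.25 and myl6 of 0.13 ± 0.28 (SE; limma, adjusted p = 0.238 and 0.738). Of the listed smooth muscle markers outside the rule only tagln and smtnb were measured, and neither passed, at 0.95 ± 0.50 and 0.24 ± 0.16 (SE; limma, adjusted p = 0.159 and 0.278; 0 at an unadjusted p under 0.05). The mean level of the kidney tubule markers was also higher in CREB fish, and their part in the smooth muscle result was not tested. Without CREB arrays 3 and 5 no smooth member passed, with acta2 at 2.05 and mylka at 0.94 (adjusted p = 0.0698 and 0.0788). In that fit 1664 of all 15502 probe sets were higher.

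Non-muscle genes serve the cytoskeleton of blood and stromal cells. Of 6 members 2 rose and 4 did not pass, a count near the 23.5% of all probe sets that were higher. The median difference was 0.32, against 0.18 over all probe sets. The non-muscle myosin light chain gene myl12.1 had 11.38, 11.77, 11.97, 12.14 and 11.34 in CREB fish, against 11.95, 12.05, 11.65, 11.95 and 11.39 in control fish. The groups overlapped throughout (difference -0.08 ± 0.19, SE; limma, adjusted p = 0.765). A second myl12.1 probe set gave a different picture, with 10.10, 11.30, 6.81, 11.12 and 6.57 in CREB fish, against 10.78, 11.07, 10.49, 10.74 and 10.47 in control fish. CREB arrays 3 and 5 were far below all others, and the difference of -1.53 ± 0.93 did not pass (SE; limma, adjusted p = 0.218). These are the arrays with the low gapdh 5' signal, and the part of RNA quality in this probe set was not tested.

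The tropomyosin gene tpm4b had 4.66, 4.48, 5.47, 4.35 and 5.35 in CREB fish, against 3.82, 3.91, 3.64, 3.74 and 3.65 in control fish. It rose by 1.11 ± 0.22 (SE; limma, adjusted p = 0.00882), and so did its second probe set, by 0.56 ± 0.12 (SE; limma, adjusted p = 0.0103), both at signals within the range of the tag probe sets. The heavy chain gene myh10 rose by 0.47 ± 0.16 (SE; limma, adjusted p = 0.0477), with 6.63 ± 0.25 in CREB fish and 6.15 ± 0.25 in controls (SD, n = 5 each). It no longer passed with any single array removed, except CREB array 3 or control array 3 (adjusted p up to 0.100). The cross-linker gene actn1 had 8.93, 9.62, 8.37, 8.75 and 8.52 in CREB fish, against 8.59, 8.78, 7.23, 8.38 and 7.47 in control fish, and did not pass (difference 0.75 ± 0.34, SE; limma, adjusted p = 0.117). The heavy chain gene myh9a and the capping gene tmod2 were at background, with differences of -0.16 and 0.17. Under quantile scaling myh9a was called lower, at -0.42 (adjusted p = 0.0209).

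**Figure D5:**
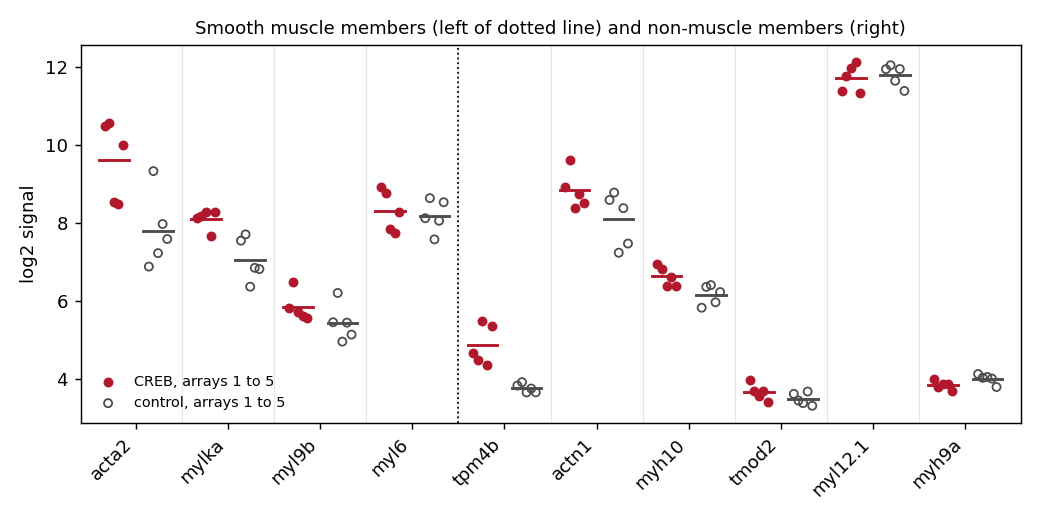
Log2 signal on each array (CREB filled, left; control open, right; bars are means) of the 4 smooth muscle and 6 non-muscle members. For acta2 and mylka the means differ by 1.82 and 1.05 with overlapping points, and for myl12.1 both groups lie between 11.34 and 12.14.

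Among genes of mixed or uncertain class, the tropomyosin gene tpm1 had 5.88, 6.37, 6.96, 4.95 and 6.20 in CREB fish, against 4.91, 4.79, 4.92, 4.94 and 5.31 in control fish. It rose by 1.1 ± 0.31 (SE; limma, adjusted p = 0.0272). Its order over the CREB arrays was unlike that of most of the 14 fast and shared striated members above: array 3 was highest and array 4 lay inside the control range. The first class placing held tpm1 as fast, and it was moved after the data were seen. Those 14 therefore leave out a gene of another order. Leaving out CREB array 2 or 5 or control array 1, 2, 3 or 4 ended the call (adjusted p up to 0.0586). The light chain gene myl13 rose by 0.54 ± 0.14 at a background signal (SE; limma, adjusted p = 0.0187). Tropomyosin genes tpm3 and tpm4a, which give muscle and cytoskeletal products, were bright in both groups and did not pass, at -0.37 ± 0.24 for tpm3 (SE; limma, adjusted p = 0.244) and 0.53 ± 0.33 for tpm4a (SE; limma, adjusted p = 0.234). The troponin T gene tnnt2c stayed at background, with 3.47 ± 0.10 in CREB fish and 3.22 ± 0.05 in controls (SD, n = 5 each; limma, adjusted p = 0.0530).

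The gene mylipa had 8.14, 7.31, 8.44, 7.85 and 8.32 in CREB fish, against 8.81, 8.91, 10.27, 8.76 and 9.76 in control fish. Every CREB array lay below every control array, a pattern shown by 4.2% of all probe sets. It fell by 1.29 ± 0.33 (SE; limma, adjusted p = 0.0194). Control arrays 3 and 5 were the highest, and without control arrays 3, 4 and 5 the difference was -0.85 (adjusted p = 0.134).

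Other muscle genes were read from lists that the symbol rule does not touch. Of 20 measured skeletal muscle genes with calcium, energy or assembly roles, 16 rose, none fell and 4 did not pass, with a median difference of 1.06. Among all probe sets, 23.5% were higher and 6.79% lower. Of the 20 genes, 5 lay within the range of the tag probe sets in both groups. The mean level of the list lay between 7.17 and 8.80 on CREB arrays and between 5.54 and 5.85 on control arrays. The parvalbumin genes pvalb2, pvalb3 and pvalb1 and the creatine kinase gene ckmb had differences of 5.76, 5.95, 5.43 and 4.97. The 4 that did not pass were the oxygen store gene mb, the enolase gene eno3, the adenylate kinase gene ak1 and the phosphorylase gene pygmb, between -0.20 and 0.19. The genes mb, eno3 and ak1 were bright in both groups. For eno3, CREB array 3 was at 8.12 and the other CREB arrays at 11.54 to 12.29, against 11.11 to 11.54 in control fish. Its negative difference thus came from that array. Over the CREB arrays the mean level of the list was lowest on arrays 2 and 3 and highest on arrays 1 and 5, as for the fast sarcomere genes. The part of muscle tissue in the samples was not tested.

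Muscle regulators were dim. Of 12 measured genes 7 rose, none fell and 5 did not pass, with a median difference of 0.45, and 9 of the 12 lay within the range of the tag probe sets in both groups. Among all probe sets, 27.4% with a mean signal below 4 and 36.8% with one between 4 and 5 were higher, so such a count of dim genes is to be read against these shares. The MEF2 transcription factor genes mef2aa and mef2ca rose by 1.0 ± 0.17 and 0.91 ± 0.20, the muscle progenitor gene pax3a by 0.47 ± 0.10 and the differentiation factor gene myog by 0.56 ± 0.12 (SE), with adjusted p from limma between 0.00532 and 0.0110. Of these, mef2ca, pax3a and myog had group means within the range of the tag probe sets in both groups. The myoblast determination genes myod1 and myf5 were at 3.73 and 3.58 in CREB fish and at 3.49 and 3.34 in control fish and did not pass. Of 7 measured heart markers 3 rose, none fell and 4 did not pass, with 6 of the 7 within the tag range, and 3 of 7 is near the 36.8% of all probe sets between 4 and 5 that were higher. The 3 were tbx5a, gata4 and tbx20, transcription factor genes of heart and other organs, at 0.69, 0.60 and 0.45. The defining cardiac gene nkx2.5 was at 3.25 in CREB fish and 3.04 in controls.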

How the data were processed

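RNA of 10 kidney marrows (5 CREB, 5 control, grouped by the sample titles) was biotinylated for Affymetrix zebrafish arrays, per the labels' protocols. The values are the authors' deposited table of 15617 probe sets, read as log2 from its range (2.57 to 15.04); the sources used here do not say how it was summarised and scaled. Setting aside 115 control probe sets of the manufacturer left 15502. Of these, 10795 have 1 symbol, 135 several and 4572 none in the platform annotation. All 47 members carry the symbol that RefSeq gives for their gene ID (assembly GRCz12tu, used for names and neighbours only).

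The test was limma 3.58.1 under R 4.3.3, two-sided, with lmFit and eBayes and no covariate, and with p-values adjusted by Benjamini-Hochberg across all 15502 probe sets at a threshold of 0.05. Tables and figures used Python 3.11.15, pandas 2.3.3 and matplotlib 3.10.9. Each array is taken as 1 fish, and 5 arrays per group limit the precision. On simulated data of 15502 probe sets for CREB against control, 61% of simulated log2 changes of 1 were recovered, 85% of those of 2, and 8 unchanged probe sets were called. The simulation drew probe sets independently, with the same SD in both groups and few changed probe sets. In the data many more were called and the SD often differed between groups, so these shares need not hold there.

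The members, lists and classes were chosen with earlier results of these data known. The rule for named genes took, in each class, the 8 smallest p-values, the 2 highest means every fall, every call among smooth and non-muscle genes, and 14 genes by name and also the 4 smallest p-values of each list of other muscle genes. All other members are named too, to account for each. Placing tpm1, myl13, tpm3, tpm4a and tnnt2c in no class was decided after seeing the data.

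The alternatives were a replicate block, a minimum mean of log2 6, median, quantile and cyclic loess scaling, trend and robust eBayes, array weights, each array left out, control arrays 3, 4 and 5 left out, and averaging all probe sets per gene. Removal of CREB arrays 1 and 5 or CREB arrays 3 and 5, and the first class placing, were added after seeing the data. No sequence was used, as none was at hand.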

Additional observations from a re-analysis of the deposited data

Results flagged for a closer look

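Among 94 groups of 5 arrays (47 genes in both groups), 6 held an array far from the other 4 by Dixon's criterion, which chance alone meets in about 1 in 20 groups. The gene mylka was 7.67 on CREB array 4 while its other CREB arrays held 8.13 to 8.28, and myl9b was 6.47 on CREB array 2 against 5.54 to 5.81. In control fish, tnnc2.2 was 4.38 on array 5 against 4.54 to 4.59, and tpm1 was 5.31 on array 5 against 4.79 to 4.94. The gene myoz1b was 7.78 on control array 2 against 5.50 to 5.93 on the others, and desmb was 3.69 on control array 3 against 4.11 to 4.26.

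Signal also appeared outside the measurements used for the members. The probe set annotated to 6 myosin heavy chain genes averaged 9.46 ± 1.31 in CREB fish and 4.58 ± 0.12 in controls (SD, n = 5 each), while the only fast heavy chain gene with a probe set of its own stayed at background. The control probe set named for acta1 and read as the 3' end of actc1b averaged 11.22 ± 1.19 in CREB fish and 6.43 ± 0.37 in controls (SD, n = 5 each).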

How the results depend on the processing

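With all arrays, 26 members were higher and 1 lower, by class 14 fast, 1 slow, 2 cardiac, 3 shared striated, 2 smooth, 2 non-muscle and 2 unplaced, and 3640 probe sets were higher and 1052 lower. No called result changed sign under any alternative run. For members whose groups did not overlap, leaving out arrays could not change the sign. Of the 27 called members, 2 (tnnt3b and tnnc2.2) kept their call under every alternative, and the cause of the losses was not tested. The median difference over the members lay between 0.43 and 0.90.

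Leaving out each array in turn gave 21 to 28 higher members and 1 lower, 13 to 15 fast, 1 slow, 1 to 2 cardiac, 3 to 4 shared striated, 1 to 2 smooth, 1 to 2 non-muscle and 1 to 3 unplaced, with 2474 to 3925 probe sets higher and 609 to 1238 lower. Without control arrays 3, 4 and 5, 2 members were higher (both fast) and 0 lower, with 0 in each other class, and 143 probe sets were higher and 226 lower. Fewer samples enter that fit. Without CREB arrays 1 and 5, 10 members were higher and 0 lower, with 8 fast, 0 slow, 0 cardiac, 1 shared striated, 0 smooth, 1 non-muscle and 0 unplaced, and 1090 probe sets higher and 310 lower. Without CREB arrays 3 and 5, 0 smooth and 0 unplaced members were higher, and 1664 probe sets higher and 370 lower.

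Scaling moved the median of all probe sets, which was 0.18 as deposited, 0.12 after median scaling, 0.04 after quantile scaling and -0.01 after cyclic loess. Median scaling left 1 cardiac and 1 non-muscle member and 2293 probe sets higher. Quantile scaling left 0 slow, 0 cardiac and 0 unplaced higher, called 2 members lower (1 non-muscle, myh9a), and had 1723 probe sets higher. Cyclic loess left 17 members higher, 0 slow, 0 cardiac, 1 non-muscle higher, 1 non-muscle lower and 0 unplaced, with 1473 probe sets higher and 1364 lower. A minimum mean of 6, which tests 20 members, left 10 higher (7 fast, 0 slow, 0 cardiac, 1 shared striated, 0 non-muscle, 0 unplaced), with 907 probe sets higher and 619 lower. Trend and robust settings gave 2 slow and 1 non-muscle. Array weights gave 2 slow, 5 shared striated, 2 members lower and 1 unplaced lower (tpm3). With the first class placing, 0 unplaced remained higher.

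With the replicate number as a block, 21 members were higher, with 0 slow, 1 cardiac and 1 unplaced, and 1762 probe sets higher and 616 lower. Deviations of same-numbered arrays correlated between -0.02 and 0.27, and 1 of 5 arrays had its best partner under the same number. With 5 pairs this cannot exclude a shared batch, and the labels do not say what the number stands for.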

Other observations

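Probe sets annotated to several genes hold values that belong to no member. The probe set annotated to both tnni2a.4 and tnni2a.2 averaged 5.57 ± 0.53 in CREB fish and 4.72 ± 0.23 in controls (SD, n = 5 each; limma, adjusted p = 0.0263), and the groups did not overlap. The probe set annotated to both myh7l and myh7 averaged 3.59 ± 0.13 in CREB fish and 3.36 ± 0.12 in control fish and did not pass (SD, n = 5 each; limma, adjusted p = 0.106). A thiopurine methyltransferase probe set, which fits the symbol rule by spelling, averaged 5.29 ± 0.31 in CREB fish and 5.29 ± 0.65 in controls (SD, n = 5 each; limma, adjusted p = 0.985).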
